A study of Mus musculus with 15 samples.

Results

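The genes described here are 10 immediate-early genes of the serum response: Egr1, Egr2, Egr3, Nr4a1, Nr4a2, Ier2, Ier3, Ier5, Dusp1 and Zfp36. They were chosen by symbol, with earlier results of these data known. They occupy 21 of the 65522 transcription units (assembled genes) for which a level was deposited in each of 15 samples of mouse embryonic fibroblasts. Levels are FPKM, fragments per kilobase of transcript and per unit of library size, so that genes and samples can be set side by side. For 9 of the 10 genes the assembly holds more than 1 unit at the locus, and the unit with the highest mean FPKM over the 15 samples, called here the lead unit, stands for the gene. Reads may have been divided between such units, and a comparison with the units of a gene summed is given with the alternatives.

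The study compared female fibroblasts of C57BL/6 background with and without CIZ1, a nuclear protein bound to the inactive X chromosome, before and after long-term culture. All primary populations came from individual mid-gestation embryos and were collected before passage 5, and culture-adapted lines were grown out of the same populations by continued passage, all at 80% confluence in the same serum-containing medium. The groups were 3 primary WT populations, their 3 adapted lines, 3 primary CIZ1 null populations and their 3 adapted lines. Values of a WT group are given in the order embryo E14.4, then E13.1, then E13.8, and those of a null group in the order E14.2, then E13.15, then E13.17, unless an embryo is named. CIZ1 null cells are homozygous for a gene trap behind the first exon of Ciz1, and E13.17 also carries a doxycycline-inducible GFP-CIZ1 transgene that was not induced. A further untreated transgenic null population (S13) and a pair of transgenic null populations treated with doxycycline at 5 to 10 µg/ml (S14 and S15) completed the 15 samples. Each adapted line is a single outgrowth, so the number of embryos limits what can be said of adaptation, and the time between the last change of medium and collection of RNA is not given in the sources used here.

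Immediate-early genes are transcribed within minutes of a mitogenic stimulus such as serum, without new protein synthesis, through factors already present in the cell, among them serum response factor (SRF) with its ternary complex cofactors downstream of ERK and CREB downstream of cyclic AMP and calcium. Their transcripts and proteins are short-lived, so that levels fall again soon after the stimulus. EGR1 to EGR3 are zinc finger transcription factors, NR4A1 and NR4A2 are orphan nuclear receptors, IER2, IER3 and IER5 are small regulators of transcription and survival, DUSP1 is a phosphatase that inactivates MAP kinases, and ZFP36 (tristetraprolin) binds AU-rich elements and speeds the decay of the messages that carry them.

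Binding motifs for these factors were looked for in promoter windows from 250 bases before to 50 bases after each RefSeq start (GRCm38.p6), of which 7 of the 10 genes had at least 1 (Egr1, Egr3 and Ier2 were not matched). Both strands were searched for the CArG box bound by SRF, the cyclic AMP response element (TGACGTCA), the AP-1 site (TGANTCA) and the EGR site (GCGNGGGCG). A CArG box was found in 2 of the 7 genes, against 1.81% of 27025 genes with a promoter in the table, a cyclic AMP response element in 1 against 2.03%, an EGR site in 3 (Nr4a1, Nr4a2 and Zfp36) against 6.27%, and an AP-1 site in none against 8.97%. The matches shown are those in Egr2, Zfp36 and Nr4a1, which fell on adaptation, and in Dusp1, with the motif in capitals and the sequence read 5′ to 3′ on the strand of the gene, and positions counted from the start of a transcript. A match is a description of the letters and not a sign of binding.
Egr2, CArG box at position -72 from an upstream start, chr10:67537484-67537513, plus strand: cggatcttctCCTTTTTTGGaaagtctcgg
Egr2, CArG box at position -72 from the start of a second promoter window, chr10:67537787-67537816, plus strand: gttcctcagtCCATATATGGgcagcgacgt
Zfp36, CArG box at position -58 from the start, chr7:28379267-28379296, minus strand: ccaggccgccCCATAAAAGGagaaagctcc
Zfp36, EGR site at position -105 from the start, chr7:28379315-28379343, minus strand: gagctacgccGCGGGGGCGcgtcccggaa
Nr4a1, EGR site on the opposite strand at position -60 from the start, chr15:101266776-101266804, plus strand: gcgtcagtggCGCCCCCGCccctctccat
Dusp1, cyclic AMP response element at position -143 from the start, chr17:26508597-26508626, minus strand: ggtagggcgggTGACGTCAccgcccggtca

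The state of the samples was checked first. Ciz1 lay between 18.7 and 25.0 FPKM in the 6 WT samples, between 0.0546 and 0.724 in the 7 null samples without doxycycline, and at 296 and 191 in S14 and S15. The deposited values hold no counts, but steps at low values put the depth of the libraries between 0.476 (S13) and 1.61 (primary WT E13.1) relative to primary WT E14.4, with adapted lines between 0.540 and 1.17. The summed level of 12 fibroblast markers (Col1a1, Vim, Fn1 and others) was 10283 to 11211 FPKM in the 6 primary populations of the main comparisons and 3267 to 6620 in the 6 adapted lines. Of the 12 fibroblast markers 9 had lower and 3 higher estimates on adaptation over both genotypes. By limma 4 fell (Col1a1, Col1a2, Vim and Fn1) and 0 rose with an adjusted p under 0.05, where 19.1% of 20046 units fell and 14.1% rose. Dcn (decorin), at 24.1 to 68.5 FPKM in the same 6 primary populations, differed widely between lines. It stood at 800.0 to 993.3 FPKM in adapted WT E14.4, null E13.15 and null E14.2. The other lines had 0.984 (WT E13.1), 46.5 (WT E13.8) and 56.8 FPKM (null E13.17). Summed markers of some other cells were lower in adapted lines too. Primary and adapted cells had 34.6 to 47.1 and 3.64 to 11.7 FPKM for 5 erythroid genes. They had 3.40 to 29.1 and 1.79 to 4.19 FPKM for 6 macrophage genes, and 14.3 to 31.3 and 0 to 11.65 FPKM for 5 epithelial genes. The sums overlapped widely for 5 endothelial genes (0.615 to 1.65 and 0.183 to 2.70 FPKM) and 4 neural genes (0.561 to 6.05 and 0.263 to 4.11 FPKM). Epcam stayed under 0.1 FPKM in all 12 of these samples, as did the muscle regulators Myod1, Myog, Pax7 and Myf5. The remaining muscle marker, Des, stood at 6.14 to 13.6 FPKM in the 6 primary populations and at 0 to 0.687 FPKM in the lines. It fell over both genotypes, with an estimate of -2.99 by limma. Of 6 genes of proliferating cells (Mki67, Top2a, Ccnb1, Pcna, Mcm2 and Mcm5) the summed level was 166.8 to 257.2 FPKM in the primary populations and 329.4 to 411.5 FPKM in 4 lines, but 71.7 FPKM in adapted null E13.17 and 122.3 FPKM in adapted null E14.2. Mki67 stood at 0.340 and 2.02 FPKM in the latter pair of lines, against 12.2 to 17.1 FPKM in primary null populations. On adaptation 6 of these 6 estimates were above 0 in WT cells, with 1 called, where 9.55% of all units were called in either direction. In null cells 5 of 6 were below 0, with none called (limma, 0 at an unadjusted p under 0.05). There 4.86% of all units were called in either direction, and 16.8% were lower at an unadjusted p under 0.05. The part of these markers in the changes below was not tested, and in bulk samples fewer cells of a type cannot be told apart from less RNA per cell.

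By lead unit, Ier5, Ier3 and Nr4a1 were the most abundant of the 10 genes, with means over the 15 samples of 58.4, 53.5 and 48.9 FPKM. Dusp1 (34.8), Egr1 (30.8) and Ier2 (29.0) followed. The order depends on this choice. With the units of a gene summed, Ier5 (97.9) and Ier3 (87.0) were still first, but Egr1 (54.3) and Ier2 (54.2) came before Nr4a1 (52.5) and Dusp1 (48.8). The lead units of Zfp36 and Egr2 reached means of 10.2 and 5.50 FPKM, whereas those of Nr4a2 (2.99) and Egr3 (1.88) were near the lower limit of 1 FPKM set for a test. Summed, the units of Nr4a2 reached 7.20 and those of Egr3 2.95 FPKM. The SD of the lead units over the 15 samples (16.3 to 50.1 FPKM for the 6 most abundant) was as large as or larger than the gaps between neighbours. That SD also holds the differences between groups, and the order of neighbours was not tested. From the lowest to the highest sample the lead units varied 5.56-fold for Nr4a2 and 5.70-fold for Ier2, but 49.7-fold for Nr4a1, 75.5-fold for Egr2 and 140.4-fold for Egr3. The lowest Egr3 value was 0.0669 FPKM, in adapted null E14.2, a library of relative depth 0.540. With units summed the range was 47.8-fold for Nr4a1, 69.4-fold for Egr2 and 57.6-fold for Egr3. The plot of levels by sample shows every value on which the comparisons rest.

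**Figure D1:**
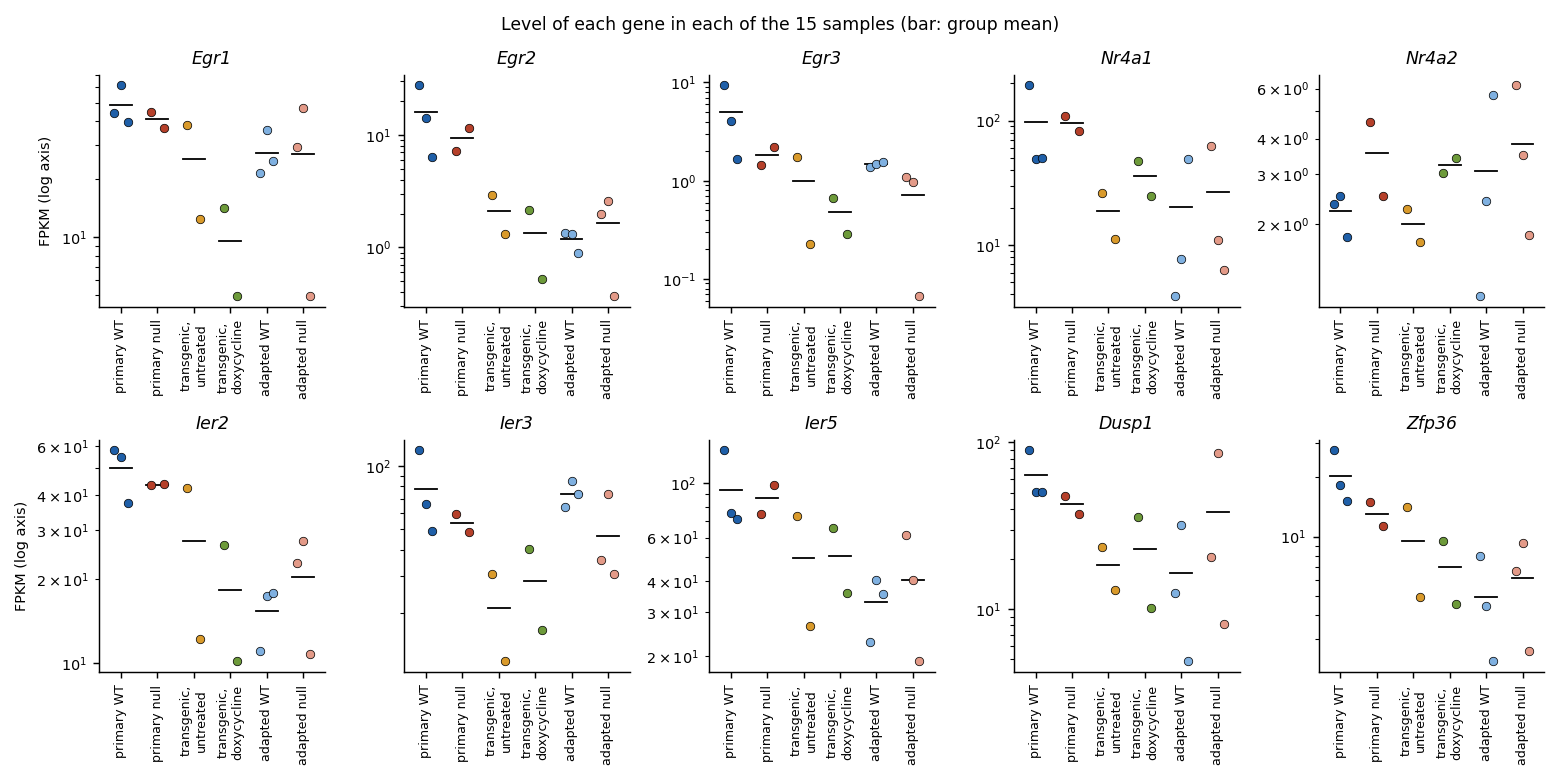
Level of each gene (lead unit, FPKM on a log axis) in each of the 15 samples, by group and with a bar at the group mean. Egr2, Ier2, Ier5 and Zfp36 are higher in each of the 6 primary populations of the main comparisons than in any adapted line, with S13 (1.30, 12.2, 26.3 and 4.91 FPKM) among the lines, whereas Ier3 and Nr4a2 overlap throughout.

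In WT cells 4 of the 10 genes fell on adaptation with an adjusted p under 0.05 (limma, Benjamini-Hochberg over all units tested), namely Ier2, Egr2, Zfp36 and Ier5, against 6.68% of 19919 units that fell and 9.55% that changed in either direction. In CIZ1 null cells 0 of the 10 passed the same test, against 4.86% of 20044 units called in either direction, and 3.47% that fell. In null cells 9 of the 10 estimates were below 0, and 4 genes were lower with an unadjusted p under 0.05, as were 16.8% of units. With both genotypes in a single fit, the genotype as a covariate and 6 samples on each side, 6 of the 10 fell and none rose, against 19.1% of 20046 units that fell, 14.1% that rose and 33.3% that changed in either direction. The median change of the 10 genes on the log2(FPKM + 1) scale was -1.55 in WT cells, -1.06 in null cells and -1.31 over both, beside -0.05, -0.04 and -0.05 for all units. Quantile normalization moved those medians of all units to 0.06, a shift small beside the changes of the genes that were called.

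Among the EGR factors, Egr2 showed the largest fall. Egr2 (chromosome 10, 67496360 to 67542188 in GRCm38, the locus as merged by the authors) stood at 27.8, 14.1 and 6.37 FPKM in primary WT cells and at 0.892, 1.34 and 1.31 FPKM in their adapted lines. In null cells it was at 7.22, 11.6 and 2.91 FPKM in primary cells and at 0.368, 2.00 and 2.61 FPKM after adaptation. All 6 primary values were above all 6 adapted ones, though E13.17 differed little from its own line, and the medians were 9.43 and 1.33 FPKM, a ratio of 7.10. The fitted change was -2.76 ± 0.48 (SE, adjusted p = 0.0248) in WT cells, -1.59 ± 0.54 (adjusted p = 0.118) in null cells and -2.18 ± 0.41 (adjusted p = 0.00235) over both genotypes, by limma.

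Egr3 (chromosome 14, 70077277 to 70083111) was a low transcript whose level depended strongly on the population. It stood at 9.40, 4.02 and 1.65 FPKM in primary WT cells, and the adapted lines were close together at 1.56, 1.37 and 1.48 FPKM. In null cells it went from 1.44, 2.202 and 1.75 FPKM in primary cells to 0.0669, 1.09 and 0.978 FPKM. Every line was therefore lower than its own primary population, by amounts between -0.09 and -2.02 on the log2(FPKM + 1) scale. The change over both genotypes was -0.91 ± 0.29 (limma, adjusted p = 0.0325), a call that was lost, with adjusted p between 0.0514 and 0.0692, without any of 7 single samples. These were primary WT E13.1, primary null E13.15 and E13.17, the 3 WT lines and the null line E14.2.

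Egr1 (chromosome 18), the best known member of the family, did not follow Egr2 to the same extent. Primary WT cells had 44.1, 61.7 and 39.7 FPKM and their adapted lines 25.0, 21.5 and 36.0 FPKM (limma, adjusted p = 0.0982). Primary null cells had 44.9, 37.1 and 38.3 FPKM, within 1.21-fold of each other. Their lines had 4.98, 29.5 and 47.0 FPKM, a 9.44-fold range in which E14.2 was among the lowest samples of the series and E13.17 exceeded its primary population. The change over both genotypes was -0.90 ± 0.41 and missed the threshold (limma, adjusted p = 0.109, unadjusted p = 0.0476), and it passed only without the adapted E13.17 line (adjusted p = 0.035).

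The nuclear receptor genes went separate ways. Nr4a1 (Nur77, chromosome 15, 101254226 to 101274900) stood at 193, 48.9 and 50.1 FPKM in primary WT cells and at 49.3, 3.88 and 7.77 FPKM in their lines. In null cells the primary values were 109, 82.4 and 26.2 FPKM and the adapted values 6.25, 62.8 and 10.95 FPKM. Levels were lower in the line than in the primary population for all 6 embryos, from 1.31-fold in E13.15 to 17.4-fold in E14.2, but the groups overlapped. From the lowest to the highest sample it varied 3.94-fold in primary WT, 4.15-fold in primary null, 12.7-fold in adapted WT and 10.05-fold in adapted null cells. The change over both genotypes was -2.22 ± 0.70 (limma, adjusted p = 0.0292). That call was lost, with adjusted p between 0.0535 and 0.0665, without primary WT E14.4, primary null E14.2 or E13.15, the WT line E13.1 or E13.8, or the null line E13.17 or E14.2. In the fit blocked by embryo, which compares each line with its own primary population, Nr4a1 fell in WT cells (adjusted p = 0.0408, against 0.122 without the block) and over both genotypes (adjusted p = 0.00985), and no other gene was called in WT cells in that fit.

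Nr4a2 (Nurr1, chromosome 2, 57106461 to 57124265) lay between 1.79 and 4.59 FPKM in the 6 primary populations and between 1.11 and 6.18 FPKM in the 6 lines. It was higher in the adapted line in 4 embryos (E14.4, E13.8, E13.15 and E13.17) and lower in E13.1 and E14.2. The estimate over both genotypes was 0.18 with a 95% interval from -0.46 to 0.82 (limma, adjusted p = 0.673). Its 4 units did not move together, with estimates from -0.40 to 0.53 among the 3 that could be tested, and their summed level gave -0.13 in WT cells.

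The IER genes divided in the same manner. Ier2 (chromosome 8, 84661330 to 84663055) had the smallest p of the 10 genes. It stood at 57.7, 54.5 and 37.3 FPKM in primary WT cells and at 43.2, 43.6 and 42.3 FPKM in primary null cells, the latter within 1.03-fold of each other. In the adapted lines it was at 17.8, 11.1 and 17.4 FPKM (WT) and at 10.8, 22.8 and 27.4 FPKM (null). Each of these primary populations was above every line, though S13, also primary, lay among the lines at 12.2 FPKM. The fall was -1.64 ± 0.26 in WT cells (adjusted p = 0.0211), -1.14 ± 0.34 in null cells (adjusted p = 0.0912) and -1.39 ± 0.23 over both (adjusted p = 0.00117), by limma.

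Ier5 (chromosome 1, 154993854 to 155099749) is a target of heat shock factor as well as of serum, and its lead unit also carries the symbol of the overlapping gene model Gm29441. Primary WT cells had 135, 75.2 and 71.1 FPKM against 35.7, 22.7 and 40.4 FPKM in the lines. Primary null cells had 75.1, 98.0 and 73.2 FPKM against 19.0, 61.5 and 40.6 FPKM. The values of these primary populations did not overlap with those of the lines, though S13 lay among the lines at 26.3 FPKM. The ratio of medians was 1.98 and the change over both genotypes was -1.30 ± 0.28 (limma, adjusted p = 0.00449). The second unit, annotated as Ier5 alone, gave -1.30 ± 0.26 (adjusted p = 0.00331).

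Ier3 (chromosome 17, 35821620 to 35822923), which protects cells from apoptosis downstream of ERK and NF-kappaB, did not fall. Its highest value was 118.5 FPKM in primary WT E14.4, but the other 5 primary populations had 65.8 (WT E13.1), 49.3 (WT E13.8), 59.1 (null E14.2), 48.4 (null E13.15) and 30.6 FPKM (null E13.17). The WT lines had 73.3, 63.7 and 84.4 FPKM, and the null lines had 30.5, 36.0 and 73.7 FPKM. Medians were 54.2 FPKM in primary and 68.5 FPKM in adapted cells, and the change over both genotypes was -0.01 with a 95% interval from -0.59 to 0.57 (limma, adjusted p = 0.977). The direction by embryo was mixed, with E13.17 and E13.8 higher after adaptation and the others lower.

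Both genes that end a response, one by dephosphorylation and the other by decay of messages, were high in primary WT E14.4. Dusp1 (chromosome 17, 26505051 to 26508986) stood at 89.6, 50.4 and 50.2 FPKM in primary WT cells and at 4.86, 12.5 and 32.1 FPKM in their lines. In null cells it went from 47.9 to 8.20 FPKM in E14.2 and from 37.4 to 20.6 FPKM in E13.15, but from 23.7 up to 86.04 FPKM in E13.17. That single line was 10.5 times the lowest null line. The change was -2.17 ± 0.62 in WT cells (limma, adjusted p = 0.0725) and -1.32 ± 0.58 over both genotypes (limma, adjusted p = 0.0998), and without the adapted E13.17 line the latter passed the test (adjusted p = 0.0107).

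Zfp36 (chromosome 7, merged locus 28376526 to 28598185) was the only one of the 10 genes with a single unit. It had 27.5, 18.3 and 15.1 FPKM in primary WT cells and 2.31, 7.94 and 4.45 FPKM in their lines. In null cells the primary values were 14.9, 11.3 and 14.2 FPKM and those of the lines 2.61, 6.66 and 9.25 FPKM. These primary populations did not overlap with the lines, although the gap between the lowest of them (11.3 FPKM) and the highest line (9.25 FPKM) was small. S13, at 4.91 FPKM, lay among the lines. The fall was -1.93 ± 0.40 in WT cells (adjusted p = 0.0372), -1.13 ± 0.39 in null cells (adjusted p = 0.123, and -0.70 without the adapted E14.2 line) and -1.53 ± 0.31 over both genotypes (adjusted p = 0.00361), by limma.

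**Figure D2:**
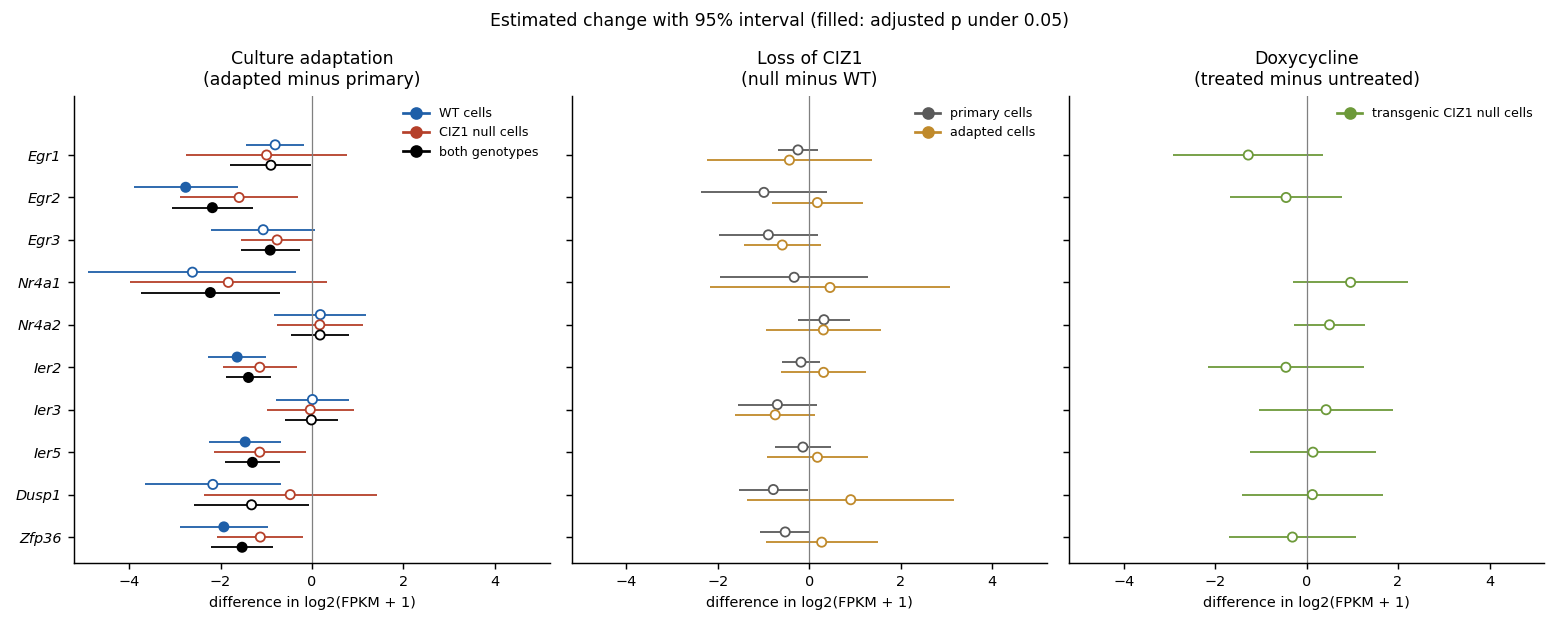
Difference in log2(FPKM + 1) for each gene with its 95% interval from limma, for culture adaptation (left), loss of CIZ1 (middle) and doxycycline (right, Egr3 not tested), with filled points for an adjusted p under 0.05. Filled points are seen only on the left, for 4 genes in WT cells and 6 over both genotypes, and all of them lie below 0.

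The genes Egr2, Ier2, Ier5 and Zfp36 were thus higher in all 6 primary populations than in all 6 lines, where 10.2% of all units tested did the same. Their calls over both genotypes were kept when any of the 12 samples was left out, with adjusted p from 0.000776 to 0.0127 over these fits. With the adapted null lines E13.17 and E14.2, whose proliferation markers were low, left out together, 6 genes were called again, these 4 with Egr1 (-0.68, adjusted p = 0.027) and Dusp1 (-1.69, adjusted p = 0.031) in place of Egr3 (adjusted p = 0.0913) and Nr4a1 (adjusted p = 0.143), by limma. The calls in WT cells alone were less firm. In the fit blocked by embryo these 4 genes had adjusted p between 0.0548 and 0.0767 in WT cells and that fit called 1 of the 10 genes. Without primary WT E14.4 or without primary WT E13.1 it was 0 genes, without primary WT E13.8 it was 1, and without the WT line E13.8 it was 2.

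In null cells the adjusted p values of 2 genes passed only when the adapted E13.15 line was left out (Ier5, 0.0454, and Nr4a1, 0.0446). The null estimates leaned on the adapted E14.2 line, without which Ier5 stood at -0.69 (from -1.14), Ier2 at -0.76 (from -1.14), Nr4a1 at -1.19 (from -1.83), Egr3 at -0.45 (from -0.76), Egr1 at -0.099 (from -0.99) and Dusp1 at 0.27 (from -0.47), none of which passed. Whether the fall differed in size between the genotypes was addressed with an interaction term in a fit of 12 samples. Of the 10 genes 0 passed (limma, smallest adjusted p = 0.996), as did 0% of all units, and at an unadjusted p under 0.05 it was 0 genes and 4.63% of units. The estimates were 1.69 for Dusp1 with a 95% interval from -0.73 to 4.12, 1.17 for Egr2 (-0.54 to 2.88) and 0.80 for Zfp36 (-0.53 to 2.13), positive values meaning a smaller fall in null cells. With a sample left out they ranged from 0.82 (without adapted null E13.17) to 2.44 for Dusp1, from 0.69 (without primary WT E14.4) to 1.67 for Egr2 and from 0.44 (without adapted WT E14.4) to 1.23 for Zfp36. These intervals are wide, so a fall of like size in both genotypes is not shown.

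Comparing each line with the primary population of its own embryo shows where the variation lies. All 10 genes were lower after adaptation in WT E13.1 and in null E14.2, 9 in WT E14.4 and null E13.15, 8 in WT E13.8 and 6 in null E13.17. The largest single changes were those of Dusp1 (-3.95) and Egr2 (-3.93) in WT E14.4 and of Nr4a1 in null E14.2 (-3.92). Null E13.17 stood apart, with rises of 1.82 for Dusp1, 1.24 for Ier3, 0.46 for Nr4a2 and 0.29 for Egr1. The adapted E13.17 line was also the lowest of the 15 samples in the proliferation markers (71.7 FPKM summed), and their part in these rises was not tested. The adapted library was shallower than the primary one in 5 of 6 embryos and deeper in WT E14.4 (1.17 against 1), and the part of depth in the changes was not tested.

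**Figure D3:**
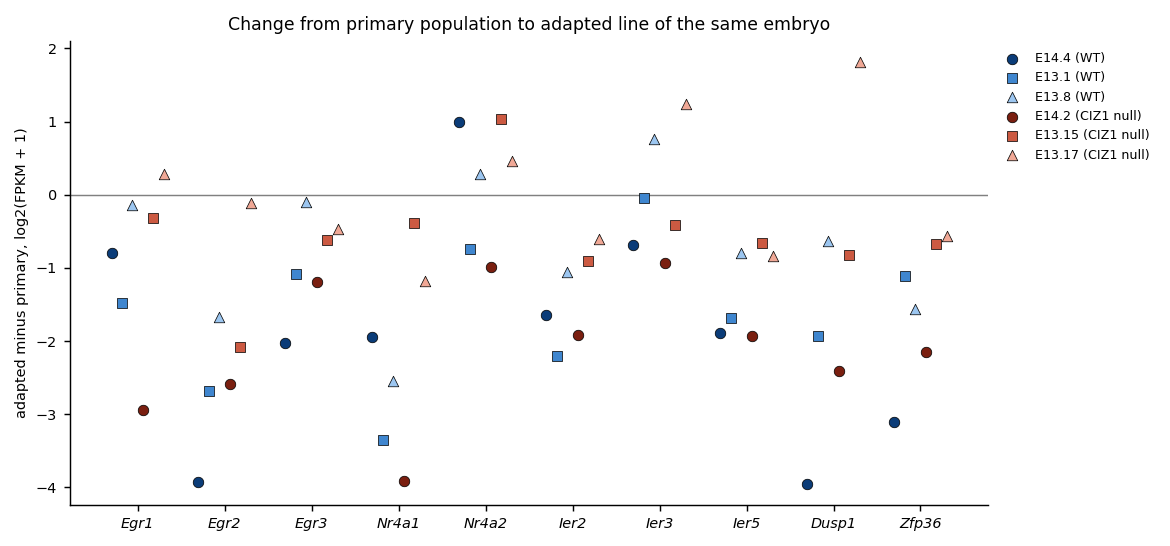
Change of each gene from the primary population to the adapted line of the same embryo, in log2(FPKM + 1), with blue symbols for WT and red symbols for CIZ1 null embryos. Nearly all points for Egr2, Nr4a1, Ier2, Ier5 and Zfp36 lie clearly below 0, Ier3 and Nr4a2 scatter around 0, and the Dusp1 point of E13.17 lies at 1.82.

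The level of the group as a whole differed between samples of 1 kind. Primary WT E14.4 was the highest of the 15 samples for 8 of the 10 genes in rank 4 for Egr1 and in rank 10 for Nr4a2, and primary WT E13.1 was among the 3 highest for 7. At the other end, adapted null E14.2 was among the 3 lowest for 9 genes, S15 for 6 and S13 for 5. S13, the shallowest library, and S15 were therefore closer in rank to adapted lines than to the other primary populations, with median ranks of 12.5 and 13, beside 14 for adapted null E14.2 and 1 for primary WT E14.4. The plot of ranks gives every position.

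**Figure D4:**
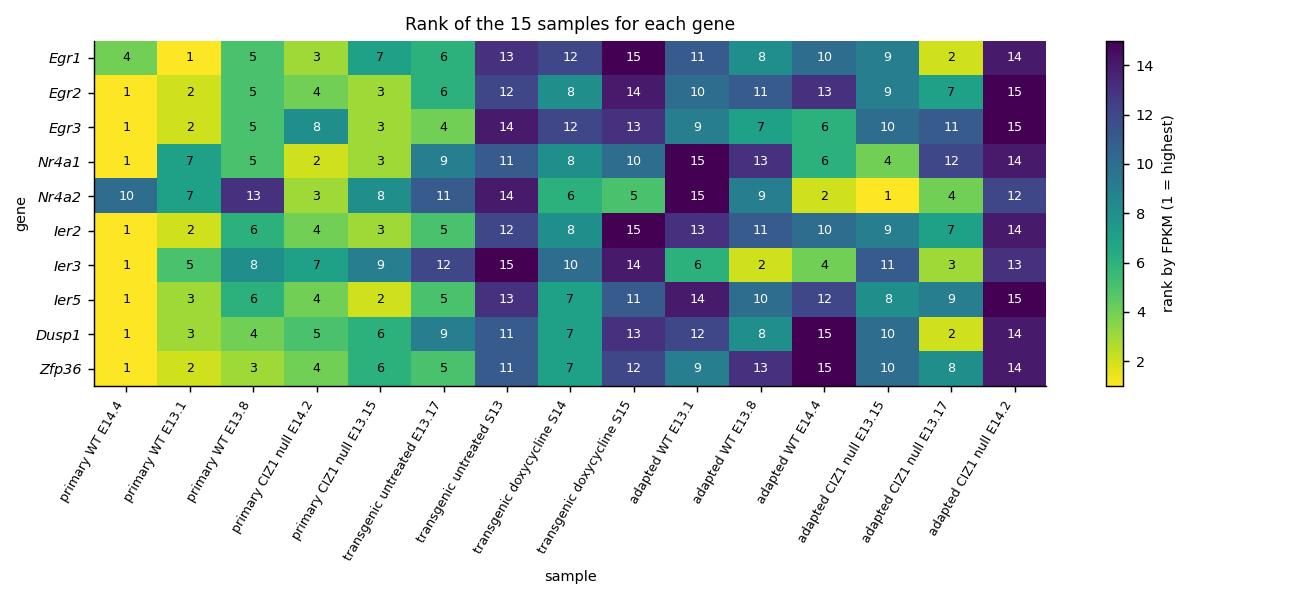
Rank of the 15 samples by FPKM for each gene, from 1 (highest, yellow) to 15 (lowest, dark), with samples ordered by group. Primary WT E14.4 holds rank 1 in 8 rows, and S13, S15 and adapted null E14.2 are dark in most rows.

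Over the 15 samples the 10 genes rose and fell together in part. Pearson correlations of log2(FPKM + 1) between the 45 pairs of genes ran from -0.17 to 0.92 with a median of 0.69. They describe samples that share the step from primary to adapted cells and, within a pair, the same libraries. Ier2 and Ier5 were the closest pair (0.92), followed by Egr2 and Ier2 (0.90) and Egr2 and Zfp36 (0.89). Nr4a2 was the least related to the rest, with a median of 0.11 to the other 9 genes and a highest value of 0.49, to Nr4a1, and Ier3 was highest with Egr3 (0.73) and Egr1 (0.69).

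Among 20031 units with a mean of at least 1 FPKM, the 8 whose profiles were most like the mean standardised profile of the 10 genes were 2 units of Junb (0.94 and 0.94), Fam53a (0.92), Trib1 (0.92), 3 units of Hbegf (0.91, 0.90 and 0.90) and Bcar1 (0.90). Junb, an AP-1 component, and Hbegf, a ligand of the EGF receptor, are themselves immediate-early genes, and Trib1 is a pseudokinase. The lead unit of Junb went from 129 FPKM in primary WT E14.4 to 16.4 FPKM in adapted null E14.2 and 15.9 FPKM in S15, and the highest Hbegf unit from 211 to 2.22 and 12.3 FPKM in the same samples. For single genes the most alike units were Npas4, Hacd1 and Fam53a for Egr1 (0.87 to 0.84), Kcnmb1, Arc and Sema7a for Egr2 (0.95 to 0.91), and both Junb units and Gm9761 for Egr3 (0.95 to 0.90). They were Gm28513, Csrnp1 and the Thoc6 and Tnfrsf12a unit for Nr4a1 (0.95 to 0.94), and Ndufaf2, Cdk14 and the unit of Pvt1 for Nr4a2 (0.79 to 0.78). For the IER genes they were Ndnl2, Coro6 and Jun for Ier2 (0.94 to 0.92), Rps6kl1, Grwd1 and Srf for Ier5 (0.94 to 0.94), and 2 units of Trib1 and Cited2 for Ier3 (0.92 to 0.84). Dusp1 was most like Pdlim5, Sdc2 and Qsox1 (0.93 to 0.90), and Zfp36 most like the units of Dnaja3 and Vasn, of Sfn and Zdhhc18, and Armc5 (0.95 to 0.93).

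Other genes of the same response were read from lists. Of 18 other immediate-early transcription factors 16 could be tested over both genotypes, of which 15 had an estimate below 0 and 8 fell, where 19.1% of all units fell, with a median of -0.98. Jun (-1.18 ± 0.16, adjusted p = 0.000435), Klf2 (-1.14 ± 0.17, adjusted p = 0.000718), Junb (-1.02 ± 0.24, adjusted p = 0.0083) and Klf4 (-1.09 ± 0.27, adjusted p = 0.00975) had the smallest p by limma. Fos, the classical partner of these genes, was at 3.43 to 5.89 FPKM in the 6 primary populations and listed at 0 to 20.2 FPKM in the lines, 0 in adapted null E14.2 and 20.2 in adapted null E13.17, and its estimate was -0.16 ± 0.55 (limma, adjusted p = 0.847). The extremes of Fos were thus the same lines as the extremes of Egr1 among the null lines.

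Of 28 other immediate-early effectors 27 could be tested, of which 23 were below 0, 13 fell and 1 rose, where 19.1% of all units fell and 14.1% rose, with a median of -0.92. The anti-apoptotic Mcl1 (-0.92 ± 0.13, adjusted p = 0.000519), the ERK phosphatase Dusp5 (-2.62 ± 0.43, adjusted p = 0.00119) and the cytoskeletal Arc (-1.58 ± 0.27, adjusted p = 0.00142) fell, and Nfkbiz, an inducible co-regulator of NF-kappaB, rose (1.37 ± 0.24, adjusted p = 0.00151), by limma. Dusp5 went from 91.8 FPKM in primary WT E14.4 to 18.5 FPKM in its line, and Nfkbiz from 10.6 to 32.96 FPKM. That embryo was the highest for Dusp5 on both sides. The other primary populations of the main comparisons had 12.5 to 39.4 FPKM of Dusp5 and the other lines 1.04 to 4.09 FPKM. For Nfkbiz these ranges were 7.18 to 12.1 and 13.3 to 35.6 FPKM.

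Genes that act upstream of the response were called in shares near those of all units. Of 23 genes for SRF, its cofactors, the RAS to ERK cascade, CREB and the EGR corepressors, all tested, 16 had estimates below 0, 5 fell and 2 rose, where 19.1% of all units fell and 14.1% rose, and the median was -0.13. Hras (-1.14 ± 0.13, adjusted p = 0.000192), the ERK-activated kinase gene Rps6ka4 (-0.90 ± 0.16, adjusted p = 0.00176) and Srf itself (-1.09 ± 0.21, adjusted p = 0.00264) fell with the smallest p, followed by Map2k2 (-0.63 ± 0.13, adjusted p = 0.00423), by limma. Srf stood at 50.6, 33.8 and 29.4 FPKM in primary WT cells and at 12.7, 17.9 and 20.6 FPKM in their lines. Braf (0.92 ± 0.22, limma, adjusted p = 0.00788) and Rps6ka5 (0.55 ± 0.19, limma, adjusted p = 0.0426) rose, and Nab1 and Nab2, which encode corepressors of EGR proteins, did not pass the test (limma, adjusted p = 0.669 and 0.068).

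Of 10 transcripts known to be bound by ZFP36, 7 could be tested, among them Ptgs2, which is also on the list of other effectors. Over both genotypes 0 passed (limma, 0 with an unadjusted p under 0.05), where 33.3% of all units were called in either direction, and the median was 0.42. The smallest p values were those of the chemokine gene Cxcl1, with an estimate of 1.96 ± 0.90 (limma, adjusted p = 0.115), and of Ptgs2, which encodes cyclooxygenase-2, with -1.58 ± 0.78 (limma, adjusted p = 0.140). Both scattered widely, Cxcl1 between 0.520 and 160.7 FPKM and Ptgs2 between 5.49 and 172.3 FPKM in the 6 lines. Cxcl1 passed in null cells alone (2.08, limma, adjusted p = 0.0431). Of 7 heat shock genes, which rise when cells are stressed during handling, Dnajb1 fell (-0.47 ± 0.14, limma, adjusted p = 0.0255), Hsph1 rose (0.56 ± 0.19, limma, adjusted p = 0.0434) and the other 5 did not pass, shares near the 19.1% of all units that fell and the 14.1% that rose.

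**Figure D5:**
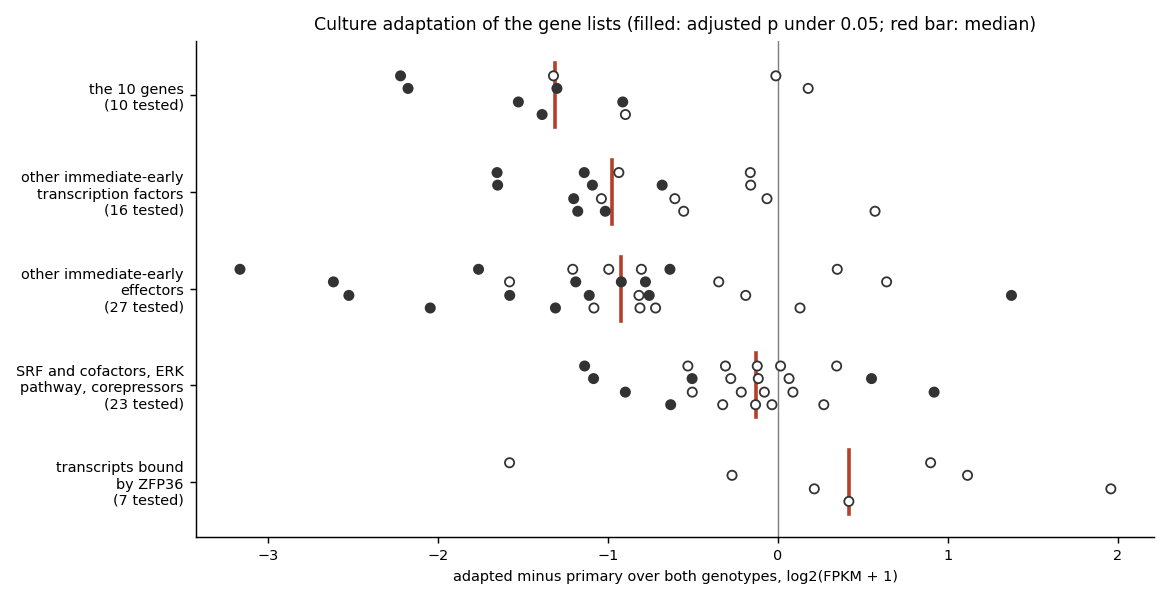
Change on adaptation over both genotypes, in log2(FPKM + 1), of the 10 genes and of 4 lists, 1 point for each gene tested, with filled points for an adjusted p under 0.05 and a red bar at the median. The medians of the 10 genes (-1.31), the other transcription factors (-0.98) and the other effectors (-0.92) lie well below 0, those of the upstream machinery (-0.13) and of the transcripts bound by ZFP36 (0.42) near or above it.

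Loss of CIZ1 in primary cells was read from 3 WT and 3 null populations. Of the 10 genes 9 had lower estimates in null cells, with a median of -0.43 while the median of all units was near 0, and 0 passed (limma, smallest adjusted p = 0.786), where 0.00511% of 19566 units did. The study, with Cuffdiff, called more units for loss of CIZ1 in these populations. Few calls by the test used here therefore do not show that the loss had little effect. The unadjusted p of Dusp1 alone was under 0.05, where 2.73% of units were lower at that level, with 50.2 to 89.6 FPKM in WT and 23.7 to 47.9 FPKM in null cells and an estimate of -0.79 (95% interval -1.54 to -0.04). Dusp1 and Zfp36 (15.1 to 27.5 and 11.3 to 14.9 FPKM) did not overlap between the genotypes, as held for 5.72% of all units that were lower in null cells. Egr2 stood at 16.1 ± 10.9 FPKM (SD, n = 3) in WT and 7.26 ± 4.37 in null cells, and Ier2 stood at 49.8 ± 10.96 and 43.1 ± 0.657. Without primary WT E14.4 the estimates for Nr4a1 and Ier5 turned positive (0.31 and 0.15), and those for Dusp1 (-0.51, unadjusted p = 0.126 by limma) and Egr2 (-0.51) shrank.

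In adapted cells loss of CIZ1 was accompanied by estimates above 0 for 7 of the 10 genes, and 0 passed (limma, smallest adjusted p = 0.998), where 0.00501% of 19976 units did. At an unadjusted p under 0.05 it was 0 of the 10 genes and 4.02% of units. The smallest unadjusted p belonged to Ier3, at 73.8 ± 10.3 FPKM (SD, n = 3) in WT and 46.7 ± 23.5 FPKM in null lines, with an estimate of -0.75 (95% interval -1.62 to 0.12). Egr3 did not overlap, at 1.37 to 1.56 FPKM in WT lines and 0.0669 to 1.09 FPKM in null lines (3.74% of all units were lower in null lines without overlap), and Dusp1 had the highest estimate (0.91) with an interval from -1.36 to 3.17, which went to 0.030 without adapted null E13.17. Null lines were the more scattered for Egr1, with an SD of 21.1 FPKM against 7.59 FPKM in WT lines, and for Dusp1 (41.8 against 14.03 FPKM). The comparisons of genotypes and of adaptation share samples, so that a line with low values enters both.

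Restoring CIZ1 was addressed in transgenic null cells, with S14 and S15 against untreated E13.17 and S13. Of the 10 genes 9 could be tested, Egr3 being below 1 FPKM on average, and 0 passed (limma, smallest unadjusted p = 0.104), where 0.0101% of 19768 units did. At an unadjusted p under 0.05 it was 0 of the 9 genes and 1.76% of units. Egr1 stood at 38.3 and 12.5 FPKM in the untreated and at 14.1 and 4.95 FPKM in the treated populations, an estimate of -1.28 (95% interval -2.92 to 0.36) that ran from -0.51 (without E13.17) to -2.05 (without S13) with a sample left out. Nr4a1 stood at 26.2 and 11.1 FPKM untreated and 47.0 and 24.9 FPKM treated, an estimate of 0.96 (-0.30 to 2.22) that ran from 0.38 (without S13) to 1.55 (without E13.17). Nr4a2 alone did not overlap, at 2.26 and 1.72 FPKM untreated and 3.01 and 3.42 FPKM treated, and 8.92% of all units were higher without overlap. The untreated and treated values of the other genes overlapped, as for Ier2 (42.3 and 12.2 against 26.4 and 10.1 FPKM), Ier5 (73.2 and 26.3 against 65.8 and 35.7 FPKM), Dusp1 (23.7 and 13.04 against 35.9 and 10.2 FPKM) and Zfp36 (14.2 and 4.91 against 9.52 and 4.54 FPKM).

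The pairs of transgenic samples differed within themselves for nearly every gene. E13.17 exceeded S13 by 3.06-fold for Egr1, 3.46-fold for Ier2, 2.78-fold for Ier5 and 2.89-fold for Zfp36. S14 exceeded S15 by 2.86-fold for Egr1, 2.61-fold for Ier2, 4.14-fold for Egr2 and 3.52-fold for Dusp1. The summed level of 5 erythroid genes was 41.4 FPKM in E13.17 and 39.8 FPKM in S14, against 6.15 FPKM in S13 and 4.33 FPKM in S15. The study describes inducible populations of more than 1 embryo, each cultured with and without doxycycline, but which embryo S14 and S15 come from is not given in the sources used here. The samples were therefore not paired, and the fits and the overlap of values above take no account of differences between embryos.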

How the data were processed

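Poly(A)-selected RNA from 15 populations was sequenced. Per the submitters' processing notes and methods, the authors trimmed reads with cutadapt 1.8.3, aligned them to GRCm38 with HISAT2 2.0.5, assembled and merged transcripts with Cufflinks and deposited FPKM per transcription unit from Cuffnorm. No strand setting is given in the sources used here, so overlapping units may share reads. A table of the authors' Cuffdiff 2.2.1 comparisons (log2 fold changes, p-values and q-values) was not used. Depth is known only relative to primary WT E14.4, from the commonest ratio of values under 0.3 FPKM, and FPKM allow no counting error to be given.

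Groups came from the sample labels. The embryo of 12 populations was identified from per-line values in the study's supplementary tables, which were identical to the deposited ones for 829 to 1022 units a sample. The source name of the E13.17 population carries the number of S13 in the labels. Primary and adapted samples of an embryo are therefore paired. Their deviations from the group means correlated across units at 0.211, 0.146 and -0.0054 in WT (E14.4, E13.1, E13.8) and -0.019, 0.107 and 0.0881 in null cells (E14.2, E13.15, E13.17). The main fits leave the embryo out and a fit with it as a block is an alternative.

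Levels were compared as log2(FPKM + 1) with limma 3.58.1 in R 4.3.3 (lmFit, eBayes with a variance trend), on the samples of each comparison, for units with a mean of at least 1 FPKM in them. Changes on this scale understate those of low transcripts. Benjamini-Hochberg adjustment covered all units tested, with a threshold of 0.05. The fit was also run on simulated data with independent normal noise. These held no embryo pairing and no outlying lines, so that run does not bear on such features here. Lists were described by counts and medians, and named by the 4 genes with the smallest p among those called, or 2 where none was. The 8 units most like the mean profile, and the 3 most like each gene, were chosen by Pearson correlation. Genes outside these rules (Fos, Braf, Rps6ka5, Nab1, Nab2 and the markers Dcn, Mki67, Epcam, Myod1, Myog, Pax7 and Myf5) were named after their values were seen. The 10 genes and the lists were chosen with earlier results of these data known. Replicates are separate embryos or lines. Python 3.11.15, pandas 2.3.3, NumPy 2.4.6 and Matplotlib 3.10.9 were used for the other steps.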

Additional observations from a re-analysis of the deposited data

How the results depend on the processing

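The 4 falls that did not overlap (Egr2, Ier2, Ier5 and Zfp36) kept their direction and their call over both genotypes in every alternative run, whereas the calls of Nr4a1 and Egr3 there, and all calls in WT cells alone, depended on the setting, and the cause was not tested. In WT cells, where 4 genes and 1902 units were called, fitting without the filter on low values gave 2 genes and 988 units, the replicate block by embryo 1 gene and 499 units, and summing the units of a gene (chosen after seeing the data) 1173 units. Leaving out 1 sample gave 0 to 4 genes and 62 to 2972 units. In null cells, where 0 genes were called, no filter gave 322 units, a single fit of all 15 samples 2641, the block by embryo 10, all 4 untreated primary null populations 449, only the 2 without a transgene 30 and summed units 606. Leaving out 1 sample gave 0 to 2 genes and 25 to 2999 units. Over both genotypes the block by embryo called 6 genes, as did the fit without it and, chosen after seeing the data, a fit without the adapted null lines E13.17 and E14.2, with Egr1 and Dusp1 in place of Egr3 and Nr4a1. The smallest call counts over both genotypes were 4 genes, without the filter and with all 4 untreated null populations, where Nr4a1 had adjusted p of 0.0547 and 0.0699 and Egr3 of 0.0603 and 0.0988 (limma).

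For loss of CIZ1 in primary cells, 1 unit was called in all, against 3 with a pseudocount of 0.1, 2 with all 4 untreated null populations, 3 with only the 2 without a transgene and 1 to 5 with a sample left out. For loss in adapted cells 1 unit was called, against 0 with a pseudocount of 0.1, 0 without the filter, 0 after quantile normalization, 0 with summed units, 13 in the single fit and 0 to 4 with a sample left out. The difference in adaptation between genotypes called 0 units, against 2 with a pseudocount of 0.1 and 0 to 234 with a sample left out. Doxycycline called 2 units, against 0 without the filter, 8 in the single fit and 0 to 6 with a sample left out.

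Estimates near 0 changed sign. Ier3 on adaptation went to -0.033 in WT cells with summed units, to 0.15 in null cells and 0.21 over both genotypes after quantile normalization, and to 0.42 and 0.23 with all 4 untreated null populations. Nr4a2 went to -0.13 in WT cells with summed units. Nr4a1 went to 0.27 for loss of CIZ1 in primary cells with only the 2 null populations without a transgene, and to -0.24 for doxycycline with all 4 untreated populations. With a sample left out, Ier3 ranged from -0.27 to 0.36 in WT cells, from -0.41 to 0.21 in null cells and from -0.18 to 0.14 over both genotypes. Nr4a2 ranged from -0.26 to 0.58, from -0.16 to 0.51 and from -0.018 to 0.35 in the same comparisons. Dusp1 in null cells ranged from -1.35 to 0.27, and for loss of CIZ1 in primary cells Nr4a1 ranged from -0.73 to 0.31 and Ier5 from -0.31 to 0.15. The values hold no counts, so counting error at low levels, as for Egr3 and Nr4a2, is unknown, and 3 samples a group limit every comparison within a genotype.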
